A study of Homo sapiens with 6 samples.

Results

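The 55 genes described here encode ribosome biogenesis factors, the proteins that make ribosomal RNA and assemble it with ribosomal proteins in the nucleolus. They were taken as a list of named nucleolar assembly genes, many of them known targets of the transcription factor MYC. The rule uses no measured value, but the list was chosen with earlier results of these data known. All 55 were among the 33514 gene symbols of the deposited tables, and all 55 were among the 16209 genes with enough counts to test. RNA sequencing covered PC3 cells, an established human line from the bone metastasis of a prostate tumour, grown in RPMI medium with serum and antibiotics. The 3 groups held 2 libraries each: cells without added heme (control), cells with 50 µM heme in the medium for 2 h, and cells with 50 µM heme for 4 h. Heme, an iron-containing porphyrin, is the oxygen-binding group of hemoglobin and a cofactor of many enzymes, and the series as a whole concerns heme, G-quadruplex DNA and MYC. The labels do not say whether the 2 libraries of a group came from separate cultures. Every p-value below therefore weighs a difference between groups only against the spread between libraries, which can be technical. No time is given for the controls, so effects of heme, of time in culture and of handling cannot be told apart.

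Ribosome production starts with RNA polymerase I, which transcribes the repeated ribosomal DNA into a long precursor. Small nucleolar ribonucleoproteins (snoRNPs) then guide its chemical modification, the small-subunit processome folds and cuts the part that becomes the 40S subunit, and other factors build the 60S subunit around the remainder. The pathway uses much of a growing cell's energy, and MYC is known to drive many of its genes, including in prostate cancer cells.

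The libraries were close to equal in depth, with between 53129375 and 55537611 reads counted to genes. The first principal component of all genes, with 58.0% of the variance, set the 2 h libraries (55.6 and 39.1) apart from those of the controls and of 4 h (-27.0 to -19.2). Epithelial markers (KRT8, KRT18 and EPCAM) summed to between 1287 and 1457 CPM in every library, where CPM is the usual depth-scaled read count, here with library sizes scaled by TMM. KLK3 and FOLH1, 2 of the 4 prostate luminal markers on the list, were at 0 in all 6 libraries. The hemoglobin genes HBA1, HBA2 and HBB were at 0 throughout. The 5 fibroblast and endothelial markers summed to between 46.7 and 48.9 CPM in the controls, between 74.1 and 88.6 CPM at 2 h and between 45.4 and 50.5 CPM at 4 h, led by PECAM1 and COL1A1. The blood cell markers, of which CD14 made up most, summed to between 0.521 and 0.852 CPM in the controls, between 2.00 and 2.63 CPM at 2 h and between 0.813 and 1.05 CPM at 4 h. The part of either list in the results below was not tested.

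Ribosome biogenesis transcripts were lower after 2 h of heme and back near the control level after 4 h. The members together took 1.12% and 1.11% of the counted reads in the controls, 0.828% and 0.865% at 2 h, and 1.14% and 1.10% at 4 h. Their summed level was 11524 and 11237 CPM in the controls, 8072 and 8345 CPM at 2 h, and 11784 and 10951 CPM at 4 h, so both 2 h libraries lay below all others. In bulk RNA, fewer cells of a kind and less RNA per cell cannot be told apart, and CPM are shares of a library rather than amounts per cell.

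Gene by gene, 45 of the 55 members (81.8%) were lower at 2 h than in the controls and 0 were higher, by the quasi-likelihood test of edgeR with a Benjamini-Hochberg adjusted p under 0.05 over all genes tested. Over all genes tested, 15.8% were lower and 15.9% were higher in that comparison. DESeq2, run as an alternative, likewise called 0 members higher, against 15.7% of all genes it tested. At an unadjusted p under 0.05 edgeR had 49 members lower and 0 higher, against 3389 lower and 3524 higher of all 16209 genes. The log2 fold change (negative where the level was lower with heme) was below 0 for all 55. Its median was -0.48, which is a 1.40-fold lower level. The median over all genes tested was 0.02. For 53 members both 2 h libraries lay below both controls, which held for 33.2% of all genes. The reverse arrangement, both 2 h libraries above both controls, was found for 0 members and for 34.6% of all genes. Of the 45, 15 were lower by at least 1.5-fold and 0 by at least 2-fold, against 5.21% and 1.05% of all genes tested.

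Since most members are abundant, they were also set beside genes of at least 50 CPM, a floor that does not match levels gene by gene. Of the 52 members with a control mean of at least 50 CPM, 45 were lower at 2 h, against 28.5% of the 4910 genes at or above that level. The median log2 fold change was -0.49 for these members and -0.12 for these genes. The heat map of every member in every library shows the same arrangement in all 6 role groups.

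**Figure D1:**
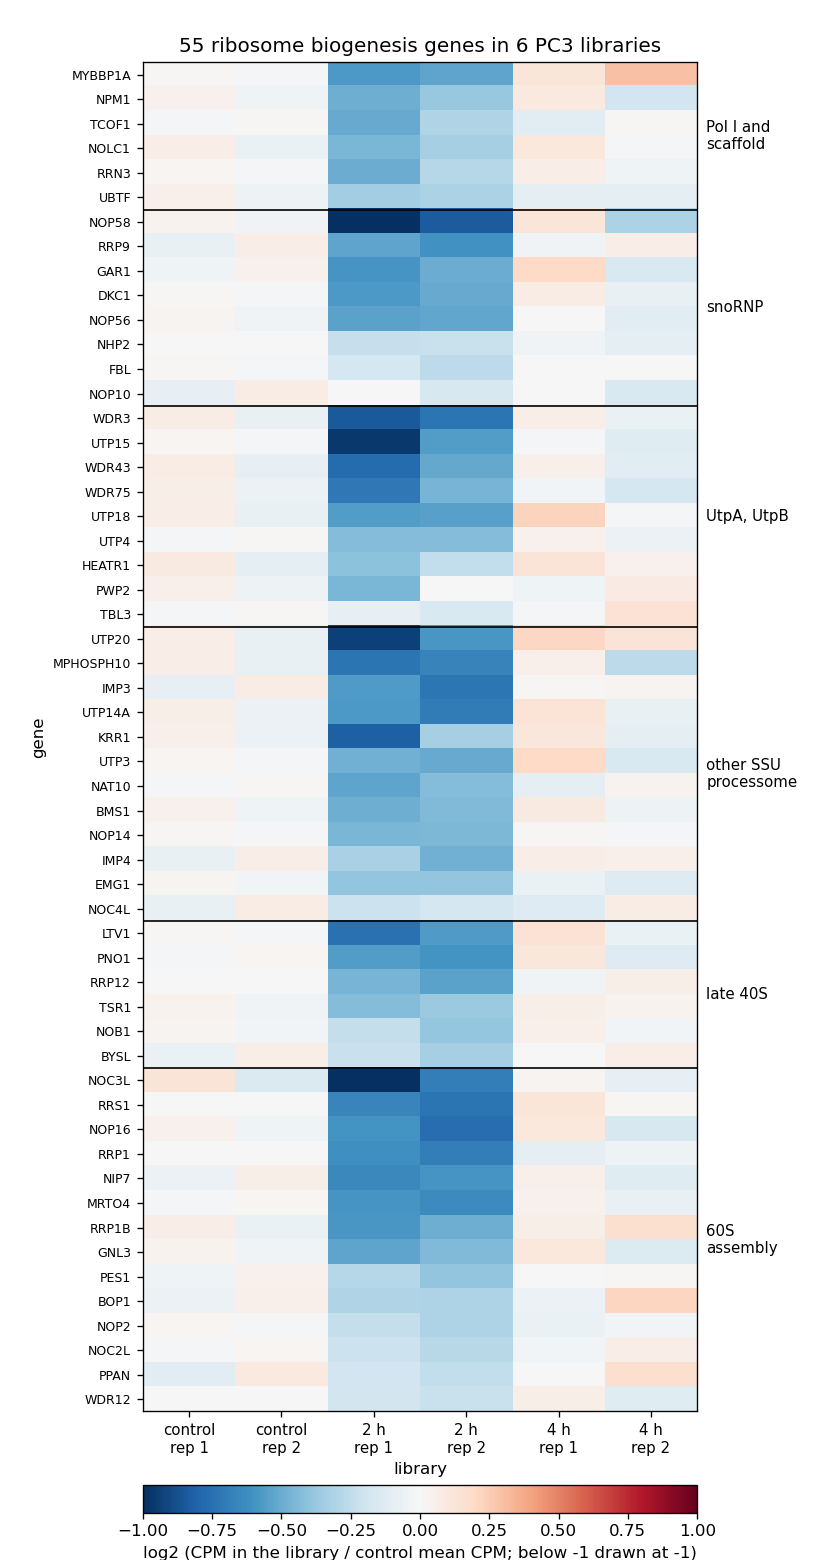
Colour gives the log2 ratio of each of the 55 members' CPM in each library to its control mean, with values below -1 drawn at -1; rows are genes grouped by role and columns are the 6 libraries. For 53 of the 55 genes both 2 h libraries lie below both controls, while the control and 4 h columns stay close to white for most genes.

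The RNA of the transcription factor to which many of these genes are known to respond moved in the opposite direction. MYC protein was not measured. MYC (ENSG00000136997.17) had 529 and 509.8 CPM in the controls, 1247 and 1079.9 CPM at 2 h and 544 and 553 CPM at 4 h, so both 2 h libraries lay above all others (log2 1.16, SE 0.09, edgeR adjusted p = 1.47e-06). MAX, the partner with which MYC binds DNA, had 93.2 and 92.3 CPM in the controls, 70.9 and 70.9 CPM at 2 h and 92.7 and 98.3 CPM at 4 h (log2 -0.39, SE 0.10, edgeR adjusted p = 0.00753). MYC and MAX bind the E-box CACGTG, whose letters read the same on both strands. It was searched for in the RefSeq promoter windows of GRCh38.p14, which run from 250 bases before to 50 bases after the annotated start and were found for 47 of the 55 members. The members without one were NOLC1, RRS1, BOP1, TCOF1, NOP58, MPHOSPH10, RRP12 and RRP1B. CACGTG was in the window of 20 of the 47 members (42.6%), 3 of them with 2 copies. It was in 9.77% of the 11297 windows of genes tested and in 7.43% of all 27305 windows. Many members are known targets of MYC, so these shares only describe the list and were not tested.

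4 such promoters are shown because they belong to the E-box members with the smallest p-values at 2 h, and they let the position of the motif be compared. Each is written 5′ to 3′ on the strand of its gene, with CACGTG in capitals. They are MRTO4 at chr1:19251555-19251854 on the plus strand, UTP20 at chr12:101279855-101280154 on the plus strand, NOC3L at chr10:94362890-94363189 on the minus strand and LTV1 at chr6:143843088-143843387 on the plus strand, all in GRCh38.p14.
MRTO4: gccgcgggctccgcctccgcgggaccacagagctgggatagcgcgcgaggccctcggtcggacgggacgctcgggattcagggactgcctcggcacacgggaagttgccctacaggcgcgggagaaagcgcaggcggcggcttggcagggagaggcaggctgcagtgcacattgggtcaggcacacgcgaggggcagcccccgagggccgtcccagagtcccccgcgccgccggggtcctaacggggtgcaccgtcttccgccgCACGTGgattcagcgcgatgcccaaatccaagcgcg
UTP20: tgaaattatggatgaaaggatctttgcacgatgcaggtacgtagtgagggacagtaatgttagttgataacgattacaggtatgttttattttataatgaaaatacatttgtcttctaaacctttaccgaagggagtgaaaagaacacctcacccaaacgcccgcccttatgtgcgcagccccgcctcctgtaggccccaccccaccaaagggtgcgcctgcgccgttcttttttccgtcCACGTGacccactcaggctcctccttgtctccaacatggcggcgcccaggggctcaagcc
NOC3L: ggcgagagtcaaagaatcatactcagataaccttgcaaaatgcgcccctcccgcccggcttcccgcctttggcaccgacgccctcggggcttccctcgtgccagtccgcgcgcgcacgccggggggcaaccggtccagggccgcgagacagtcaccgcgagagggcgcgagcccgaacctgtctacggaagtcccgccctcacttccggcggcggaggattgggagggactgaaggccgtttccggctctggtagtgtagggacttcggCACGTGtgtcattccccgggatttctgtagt
LTV1: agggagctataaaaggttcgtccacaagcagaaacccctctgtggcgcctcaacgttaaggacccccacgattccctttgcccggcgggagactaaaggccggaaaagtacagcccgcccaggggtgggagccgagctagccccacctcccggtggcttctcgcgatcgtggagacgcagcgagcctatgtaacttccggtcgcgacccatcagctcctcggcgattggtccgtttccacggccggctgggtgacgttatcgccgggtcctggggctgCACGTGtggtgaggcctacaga

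In these windows the motif began 14 bases after the RefSeq start of MRTO4, 10 bases before that of UTP20, 19 bases after that of NOC3L and 28 bases after that of LTV1. The gene positions given below are from GENCODE and can differ. For MRTO4 the GENCODE start, 19251539, lies before the whole window. Of the 20 members with CACGTG, 16 were lower at 2 h (median log2 -0.52), and of the 27 without it 21 were lower (median log2 -0.47). Over all genes tested, 22.7% of those with the motif and 17.5% of those without it were lower. A G-quadruplex pattern was searched for on either strand, as 4 runs of at least 3 guanines with loops of 1 to 7 bases. It was in 15 of the 47 member windows (31.9%), in 33.8% of the windows of genes tested and in 24.1% of all windows, and it could overlap the E-box. Of the 15 members with the pattern, 12 were lower at 2 h (median log2 -0.43), and of the 32 without it 25 were lower (median log2 -0.49). Over all genes tested, 15.7% of those with the pattern and 19.2% of those without it were lower. NOC3L alone of the promoters shown held both motifs, as did 7 members in all. These matches describe letters in a window and no binding was measured.

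The first role group holds the transcription machinery and scaffold of the nucleolus, and all 6 members were lower at 2 h (median log2 -0.39). MYBBP1A (ENSG00000132382.14, chromosome 17 from 4538897 to 4555631), a nucleolar MYB-binding protein that acts in ribosomal RNA synthesis, had 254 and 249 CPM in the controls, 169 and 174 CPM at 2 h and 274 and 308 CPM at 4 h. Its 2 h libraries lay below both controls (log2 -0.55, SE 0.09, edgeR adjusted p = 0.000644), and its 4 h libraries lay above them without passing the test (log2 0.21, SE 0.09). NPM1 (ENSG00000181163.13, chromosome 5 from 171387116 to 171411137), the abundant nucleolar chaperone nucleophosmin, had 1934 and 1826 CPM in the controls, 1342 and 1448 CPM at 2 h and 2009 and 1644 CPM at 4 h. The fall at 2 h did not overlap the controls (log2 -0.43, SE 0.10, edgeR adjusted p = 0.00512), but the 4 h libraries lay on either side of them.

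TCOF1 encodes treacle, the nucleolar scaffold altered in Treacher Collins syndrome, and had 225 and 228 CPM without heme, 160.5 and 184 CPM after 2 h and 209.6 and 229 CPM after 4 h (log2 at 2 h -0.40). NOLC1, a scaffold that binds snoRNPs, had 239.9 and 262 CPM at 2 h, against 343 and 314 CPM in the controls and 354 and 325 CPM at 4 h (log2 at 2 h -0.39). Both were lower in each 2 h library than in each control. RRN3, which brings RNA polymerase I to the ribosomal DNA promoter, had 99.3 and 96.6 CPM in the untreated libraries, 69.6 and 80.4 CPM at 2 h, and 103 and 95.3 CPM at 4 h (log2 at 2 h -0.39). UBTF, which keeps ribosomal DNA open for that polymerase, had 177 and 165 CPM in the controls, 134 and 137 CPM at 2 h and 160.3 and 160.0 CPM at 4 h. UBTF was the only member lower at 2 h (log2 -0.33, edgeR adjusted p = 0.0146) that was not called higher again at 4 h against 2 h (log2 0.24, edgeR adjusted p = 0.0675). Both its 4 h libraries, at 160.3 and 160.0 CPM, lay above the 2 h libraries and below the controls.

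Among the 8 snoRNP proteins 5 were lower at 2 h (median log2 -0.53), and they held the largest fall of all members. NOP58 (ENSG00000055044.10, chromosome 2 from 202265716 to 202303666), a core protein of the box C/D snoRNPs that guide methylation of ribosomal RNA, had 250.2 and 239 CPM in the controls, 117 and 137 CPM at 2 h and 267 and 197 CPM at 4 h. The fit gave a 1.93-fold lower level at 2 h (log2 -0.95, SE 0.13, edgeR adjusted p = 0.00012), and its 4 h libraries lay on either side of the controls. NOP56 (ENSG00000101361.16, chromosome 20 from 2652145 to 2658393), its partner in the same particle, had 949 and 909 CPM without heme, 641 and 649.9 CPM after 2 h and 933 and 862 CPM after 4 h (log2 -0.53, SE 0.09, edgeR adjusted p = 0.000514). FBL, the methyltransferase of that particle, had 167 and 157 CPM at 2 h, against 189 and 187 CPM in the controls and 188 and 187 CPM at 4 h, and did not pass the test although its 2 h libraries lay below the controls (log2 -0.22, 95% interval -0.41 to -0.02, edgeR adjusted p = 0.082).

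The box H/ACA particle, which guides pseudouridine formation, had 2 of its 4 core proteins lower. DKC1 (ENSG00000130826.17, chromosome X from 154762742 to 154777689), its pseudouridine synthase, had 518 and 508 CPM in the controls, 345 and 361 CPM at 2 h and 539 and 488 CPM at 4 h (log2 -0.54, SE 0.09, edgeR adjusted p = 0.00056). GAR1 had 59.2 and 62.8 CPM without heme, 40.6 and 43.2 CPM after 2 h and 70.1 and 54.9 CPM after 4 h (log2 at 2 h -0.54). The other two H/ACA core proteins did not pass. NHP2 had 85.3 and 86.1 CPM at 2 h, against 99.9 and 101 CPM in the controls and 97.9 and 94.1 CPM at 4 h (log2 -0.23, 95% interval -0.43 to -0.02), with 2 h libraries below the controls. NOP10 had 123 and 110.0 CPM at 2 h, against 117 and 129.7 CPM in the controls and 123 and 111 CPM at 4 h (log2 -0.08, 95% interval -0.30 to 0.15). NOP10 had the smallest difference of all members, and its groups overlapped. RRP9, a protein specific to the U3 snoRNP that starts processome assembly, had 169 and 186 CPM in the untreated libraries, 123 and 117 CPM at 2 h, and 173 and 186 CPM at 4 h (log2 at 2 h -0.56).

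UtpA and UtpB are the subcomplexes that bind the 5′ end of the precursor first. Of their proteins on the list, 7 of 9 were lower at 2 h (median log2 -0.55). All 5 listed UtpA proteins were among them. UTP15 (ENSG00000164338.9, chromosome 5 from 73565443 to 73583377) had 70.7 and 68.6 CPM in the controls, 35.6 and 47.2 CPM at 2 h and 68.9 and 63.9 CPM at 4 h, with a wide gap between its 2 h libraries that still left both below the controls (log2 -0.75, SE 0.13, edgeR adjusted p = 0.000606). WDR43 (ENSG00000163811.11, chromosome 2 from 28894643 to 28948222) had 336 and 301 CPM without heme, 187 and 224 CPM after 2 h and 329.7 and 295 CPM after 4 h (log2 -0.63, SE 0.11, edgeR adjusted p = 0.000638). The UtpA members WDR75, UTP4 and HEATR1 followed. WDR75 had 96.8 and 115 CPM at 2 h, against 166 and 152 CPM in the controls and 156 and 141 CPM at 4 h (log2 at 2 h -0.58). UTP4, also called cirhin, had 208 and 211 CPM in the untreated libraries, 155 and 156 CPM at 2 h, and 217 and 202 CPM at 4 h (log2 at 2 h -0.43). HEATR1, a long scaffold protein, had 118 and 104 CPM in the controls, 83.5 and 93.5 CPM at 2 h and 121 and 114 CPM at 4 h (log2 at 2 h -0.33), and 23.2% of its exonic bases overlap other genes.

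Of the listed UtpB proteins, 2 of 4 were lower. WDR3 (ENSG00000065183.15, chromosome 1 from 117929720 to 117966542) had 267 and 240.4 CPM in the controls, 142 and 153 CPM at 2 h and 266 and 242 CPM at 4 h, the smallest p-value of any member at 2 h (log2 -0.79, SE 0.10, edgeR adjusted p = 6.38e-05), and its 4 h libraries lay within the range of the controls. UTP18 had 63.4 and 63.9 CPM at 2 h, against 97.9 and 88.8 CPM in the controls and 109 and 91.9 CPM at 4 h (log2 at 2 h -0.55). TBL3 had 81.3 and 82.2 CPM without heme, 77.2 and 73.7 CPM after 2 h and 80.6 and 90.3 CPM after 4 h; the 2 h libraries were below the controls by a small margin (log2 -0.12, 95% interval -0.33 to 0.10) and the test was not passed. PWP2, the last of the listed UtpB proteins, had between 0.405 and 0.59 CPM in the 6 libraries, with as few as 23 reads. Its groups overlapped (log2 -0.21, SE 0.40). Of its annotated transcript sequence, 85.0% of all 75-base stretches also occur in FP565260.1 or FP565260.2, so its value is uncertain.

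Of the other 12 small-subunit processome factors 11 were lower at 2 h (median log2 -0.49). UTP20 (ENSG00000120800.4, chromosome 12 from 101280109 to 101386616), a very large scaffold whose E-box promoter is printed above, had 142 and 129 CPM in the controls, 71.1 and 90.4 CPM at 2 h and 156 and 148 CPM at 4 h. It was lower at 2 h (log2 -0.75, SE 0.12, edgeR adjusted p = 0.000325) and had the largest rise from 2 h to 4 h of all members (log2 0.91, SE 0.12, edgeR adjusted p = 6.73e-05). Both 4 h libraries of UTP20 lay above both controls, as did those of 2749 of the 16209 genes tested. UTP14A (ENSG00000156697.12, chromosome X from 129906121 to 129929761), which works with the helicase DHX37, had 108 and 99.3 CPM without heme, 69.6 and 63.7 CPM after 2 h and 114 and 98.2 CPM after 4 h (log2 -0.63, SE 0.11, edgeR adjusted p = 0.000595). The U3-binding proteins IMP3, IMP4 and MPHOSPH10 act as a trio. IMP3 (ENSG00000177971.8, chromosome 15 from 75639085 to 75648706) had 44.4 and 39.8 CPM at 2 h, against 62.2 and 69.2 CPM in the controls and 66.4 and 66.9 CPM at 4 h (log2 -0.64, SE 0.11, edgeR adjusted p = 0.000594). MPHOSPH10 had 70.6 and 63.9 CPM in the untreated libraries, 40.5 and 42.3 CPM at 2 h, and 69.9 and 56.3 CPM at 4 h (log2 at 2 h -0.70). IMP4 had 181 and 199.7 CPM in the controls, 152 and 137 CPM at 2 h and 199 and 197 CPM at 4 h (log2 at 2 h -0.40), so all 3 of the trio were lower. IMP4 had the smallest fold change of them, and the difference between them was not tested.

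The processome enzymes were lower as well. NAT10, an RNA acetyltransferase, had 196 and 198 CPM without heme, 137 and 146 CPM after 2 h and 184 and 202 CPM after 4 h (log2 at 2 h -0.48). EMG1, a methyltransferase of the small-subunit RNA, had 47.7 and 47.8 CPM at 2 h, against 63.9 and 61.8 CPM in the controls and 60 and 57.4 CPM at 4 h (log2 at 2 h -0.40). BMS1, a GTPase of the processome, had 276 and 261 CPM in the untreated libraries, 191 and 198 CPM at 2 h, and 285 and 259 CPM at 4 h (log2 at 2 h -0.47). Each of these enzymes had both 4 h libraries above both 2 h libraries. UTP3 had 140.4 and 137 CPM in the controls, 99.7 and 97.9 CPM at 2 h and 159.7 and 125 CPM at 4 h (log2 at 2 h -0.49). KRR1, an RNA-binding factor, had 55.3 and 51.3 CPM without heme, 30.3 and 42.3 CPM after 2 h and 57.8 and 50.0 CPM after 4 h (log2 at 2 h -0.55). NOP14 had 97.9 and 98.7 CPM at 2 h, against 135 and 133 CPM in the controls and 135 and 132 CPM at 4 h (log2 at 2 h -0.45). In each of these, too, both 4 h libraries lay above both 2 h libraries. NOC4L, which binds NOP14, was the processome factor that did not pass, with 61.6 and 68.1 CPM in the controls, 55.9 and 57.5 CPM at 2 h and 59.2 and 68.3 CPM at 4 h (log2 -0.19, 95% interval -0.43 to 0.04).

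All 6 factors of late 40S maturation were lower at 2 h (median log2 -0.45). LTV1 (ENSG00000135521.8, chromosome 6 from 143843344 to 143863812), which leaves the precursor before its last steps and whose promoter is also printed above, had 97.5 and 96.1 CPM in the controls, 57.6 and 65.3 CPM at 2 h and 107 and 92.5 CPM at 4 h (log2 -0.66, SE 0.11, edgeR adjusted p = 0.000513). PNO1 (ENSG00000115946.7, chromosome 2 from 68157844 to 68176238) had 141 and 145 CPM without heme, 97.1 and 94.7 CPM after 2 h and 155 and 131 CPM after 4 h (log2 -0.58, SE 0.10, edgeR adjusted p = 0.000843). PNO1 holds the nuclease NOB1 in check, and NOB1, which makes the final cut of the small-subunit RNA, had 106 and 95.6 CPM at 2 h, against 127 and 123 CPM in the controls and 129.5 and 123 CPM at 4 h (log2 at 2 h -0.31). Both were lower, and their fold changes were not tested against each other. RRP12, needed for export of the precursor, had 197 and 195 CPM in the untreated libraries, 142 and 135 CPM at 2 h, and 191 and 204 CPM at 4 h (log2 at 2 h -0.50). TSR1, a GTPase-like factor, had 171 and 163 CPM in the controls, 124 and 129 CPM at 2 h and 174 and 171 CPM at 4 h (log2 at 2 h -0.40). BYSL had 116 and 127 CPM without heme, 104 and 96.4 CPM after 2 h and 121 and 127 CPM after 4 h (log2 at 2 h -0.28, edgeR adjusted p = 0.0444). BYSL lay closest to the threshold of all members called and was called under 7 of 14 alternative settings.

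Of the 14 factors of 60S assembly 10 were lower at 2 h (median log2 -0.51). RRS1 (ENSG00000179041.3, chromosome 8 from 66429028 to 66430733), which helps place the 5S particle, had 111 and 111 CPM in the controls, 69.8 and 66.6 CPM at 2 h and 121 and 112 CPM at 4 h (log2 -0.70, SE 0.10, edgeR adjusted p = 0.000141). RRP1 (ENSG00000160214.12, chromosome 21 from 43789513 to 43805293) had 115 and 115 CPM without heme, 75.1 and 71.3 CPM after 2 h and 108 and 111 CPM after 4 h (log2 -0.65, SE 0.10, edgeR adjusted p = 0.000207). MRTO4 (ENSG00000053372.4, chromosome 1 from 19251539 to 19260128), which holds the place of the ribosomal stalk and whose promoter opens the set above, had 119 and 115 CPM at 2 h, against 177 and 181 CPM in the controls and 185 and 169.8 CPM at 4 h (log2 -0.61, SE 0.09, edgeR adjusted p = 0.000294). Replicates of these factors agreed closely and no 2 h library overlapped a control. NOC3L had 86 and 71 CPM in the controls, 35.6 and 48.6 CPM at 2 h and 80.0 and 74.2 CPM at 4 h (log2 at 2 h -0.90, SE 0.14), with more spread between replicates. NOP16 had 151 and 142 CPM in the untreated libraries, 96.9 and 86.4 CPM at 2 h, and 158 and 131 CPM at 4 h (log2 at 2 h -0.68). NIP7 had 178 and 193 CPM without heme, 118 and 123 CPM after 2 h and 192 and 170.3 CPM after 4 h (log2 at 2 h -0.62). At 4 h the libraries of NOC3L, NOP16 and NIP7 overlapped the controls.

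RRP1B, a paralogue of RRP1 that lies near it on chromosome 21, had 176 and 159.7 CPM in the controls, 112 and 119 CPM at 2 h and 175 and 187 CPM at 4 h (log2 at 2 h -0.54). GNL3, the GTPase nucleostemin, had 421 and 401 CPM without heme, 286 and 303 CPM after 2 h and 443 and 374 CPM after 4 h (log2 at 2 h -0.48). PES1, BOP1 and WDR12 form the PeBoW complex, and 2 of the 3 were lower. PES1 had 205 and 190.4 CPM at 2 h, against 243 and 257 CPM in the controls and 249.9 and 252 CPM at 4 h (log2 at 2 h -0.34). BOP1 had 324 and 349.5 CPM in the untreated libraries, 274 and 272 CPM at 2 h, and 324 and 392 CPM at 4 h (log2 at 2 h -0.30). Neither overlapped the controls at 2 h. WDR12 had 129 and 128 CPM in the controls, 113 and 110.0 CPM at 2 h and 134 and 118 CPM at 4 h, with the 2 h libraries below the controls but the test not passed (log2 -0.20, 95% interval -0.41 to 0.005). NOC2L, the partner of NOC3L, had 259 and 248 CPM at 2 h, against 296 and 306 CPM in the controls and 296 and 316 CPM at 4 h. It missed the threshold at 2 h by a small margin (log2 -0.24, edgeR adjusted p = 0.0502). NOC2L was called higher at 4 h against 2 h (log2 0.27, edgeR adjusted p = 0.0379). NOP2, a methyltransferase of the large-subunit RNA, had 16.1 and 15.7 CPM without heme, 13.5 and 12.9 CPM after 2 h and 15.2 and 15.7 CPM after 4 h (log2 -0.27, 95% interval -0.55 to -0.00073). PPAN had 29.4 and 28.4 CPM at 2 h, against 31.3 and 35.9 CPM in the controls and 33.7 and 37.4 CPM at 4 h (log2 -0.22, 95% interval -0.48 to 0.04). In both, the 2 h libraries lay below the controls without passing the test.

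The 10 members not called at 2 h were FBL, NHP2, NOP10, PWP2, TBL3, NOC4L, WDR12, NOC2L, NOP2 and PPAN. Their log2 fold changes ran from -0.27 to -0.08 (median -0.22), so each lay on the same side as the members that passed. With 2 libraries per group, differences of that size did not pass over all genes tested; the SE of the fit was between 0.09 and 0.14 for every member other than PWP2. Just inside the threshold lay BYSL (log2 -0.28) and just outside it NOC2L (log2 -0.24).

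After 4 h of heme the members were close to the controls. The edgeR test called 0 of 55 lower and 0 higher at 4 h, against 0.00617% lower and 0.0247% higher over all genes tested, which are 1 and 4 genes. DESeq2 also called 0 members in either direction, against 0.0913% lower and 0.0609% higher of all genes it tested. At an unadjusted p under 0.05 edgeR had 0 members lower and 1 higher, MYBBP1A, against 270 lower and 313 higher of all 16209 genes. The median log2 fold change was 0.002, with 26 members below 0 and 29 above. Values ran from -0.10 (WDR75) to 0.21 (MYBBP1A, 95% interval 0.01 to 0.41). Both 4 h libraries lay above both controls for 4 members, UTP20 and MYBBP1A among them. They lay below both controls for 5 members, UBTF among them. Over the 16209 genes tested, these arrangements were found for 2749 and 2821 genes. The 95% intervals of the 54 members other than PWP2 all lay within -0.35 to 0.41, so a log2 fold change of -0.48, the median at 2 h, lay outside each of them. This comparison and that of 2 h share the same control libraries, so the values are only set side by side in the plot of fold changes.

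**Figure D2:**
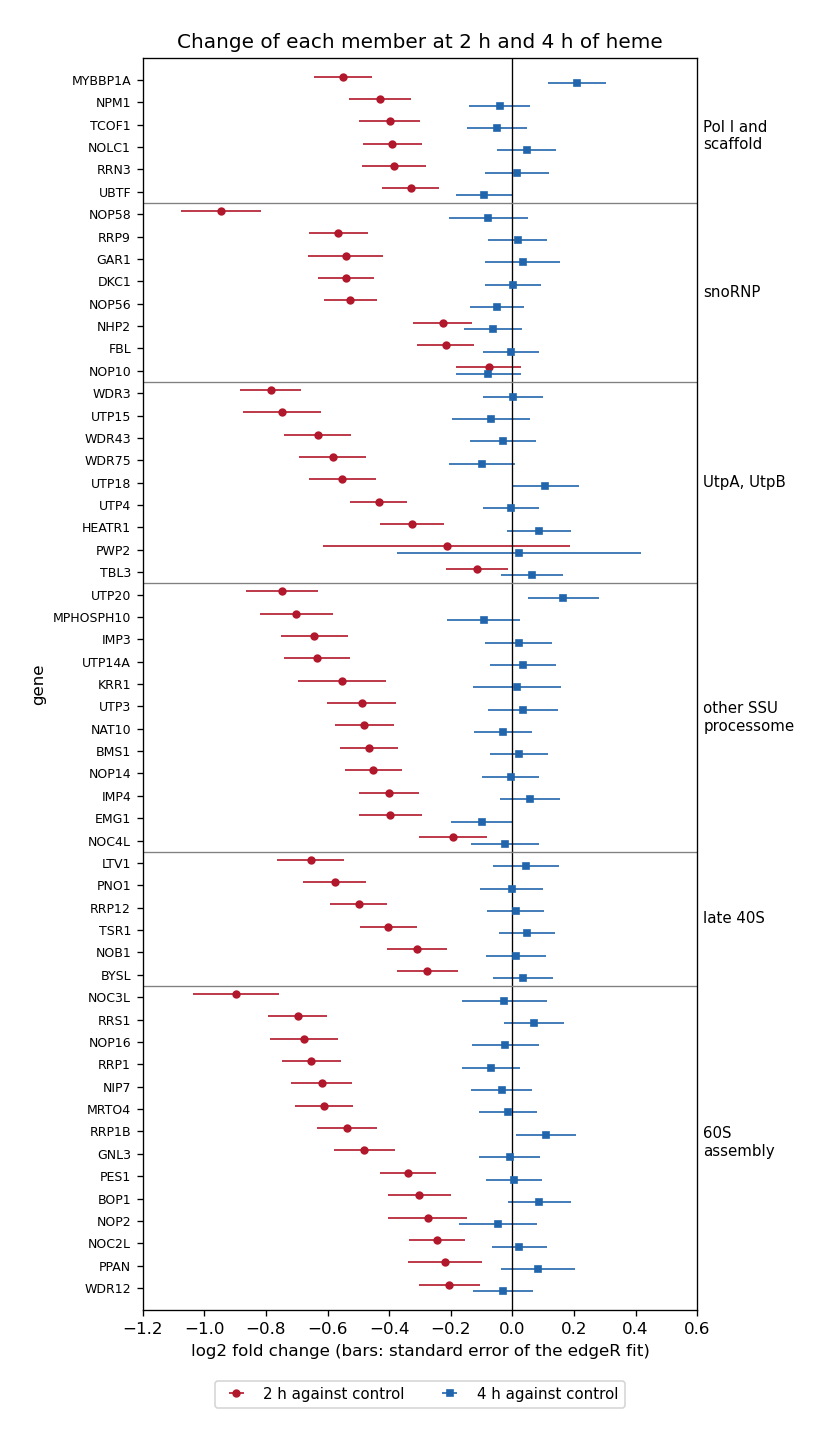
Points give each member's log2 fold change from the edgeR fit at 2 h (red circles) and at 4 h (blue squares) against the same 2 controls, with bars of 1 standard error; rows are genes grouped by role. All 55 red points lie left of 0, down to -0.95 for NOP58, while the blue points lie between -0.10 and 0.21.

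The return was tested directly by comparing 4 h with 2 h. By edgeR's quasi-likelihood test 45 of 55 members were higher at 4 h and 0 were lower, against 14% higher and 14.1% lower over all genes tested. DESeq2 called 48 members higher and 0 lower, against 17.4% higher and 12.5% lower of all genes it tested. At an unadjusted p under 0.05 edgeR had 48 members higher and 0 lower, against 3159 higher and 3315 lower of all 16209 genes. The median log2 fold change was 0.48, against -0.03 over all genes. The largest rises were those of UTP20 (log2 0.91), NOC3L (log2 0.87), NOP58 (log2 0.87), WDR3 (log2 0.79), RRS1 (log2 0.77) and MYBBP1A (log2 0.76). In all, 44 members were lower at 2 h and higher again at 4 h against 2 h, as were 1962 of the 16209 genes tested. Both calls rest on the same 2 h libraries. UBTF was lower at 2 h alone, NOC2L was called in the later comparison alone, and the remaining 9 members were called in no comparison.

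Levels between genes can be compared only per length, here as control CPM per kilobase of exon. NPM1 was the most abundant member at 491 CPM per kilobase. It was followed by NOP10 at 222, NOP56 at 172, GNL3 at 124 and DKC1 at 122 CPM per kilobase, of which the last pair lay within the spread of their replicates. The median member was at 37.0 CPM per kilobase, against 5.06 for 13615 genes tested with a coding transcript. The lowest were KRR1 at 4.96, NOP2 at 3.4 and PWP2 at 0.0806 CPM per kilobase. These ranks depend on the annotation. KRR1 was divided by 10749 bases of exon, and 54.4% of the exonic bases of NOP2 overlap another gene. The effect of this on the ranks was not tested. Across the 55 members the fold change at 2 h had a Spearman's rho of 0.008 with this level and -0.06 with transcript length. Across the 13615 genes the values were -0.36 and 0.03.

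**Figure D3:**
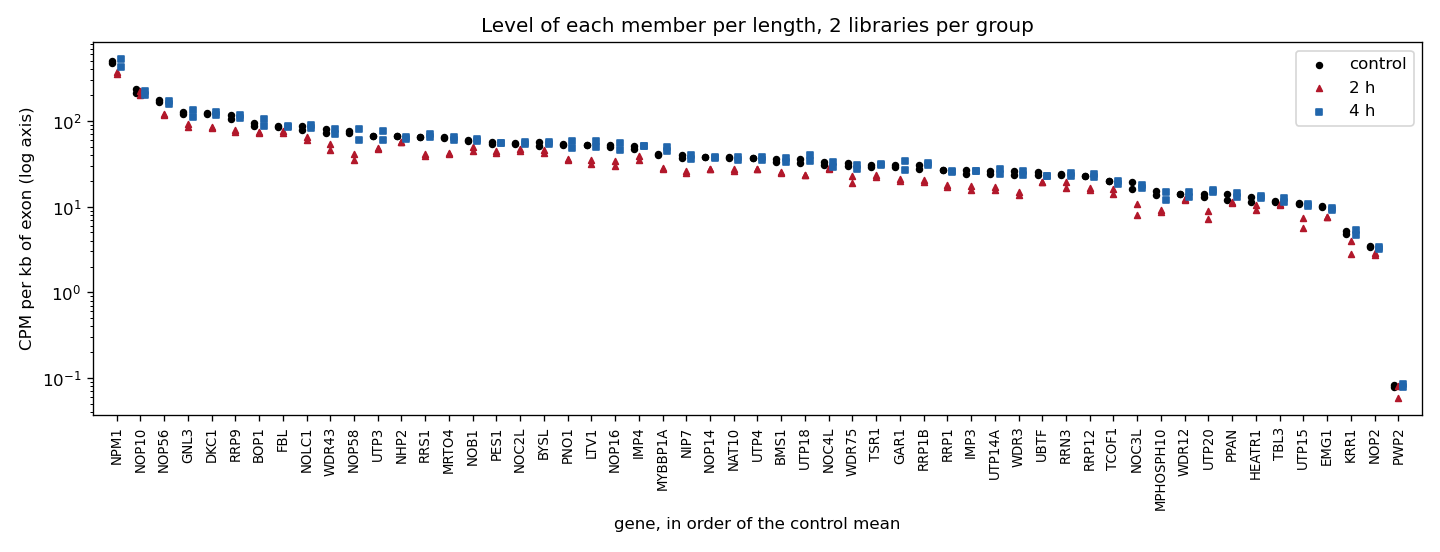
Each member's level per kilobase of exon (log axis) is drawn for the 2 control (black circles), 2 h (red triangles) and 4 h (blue squares) libraries, with genes in order of their control mean. NPM1 stands highest at 491 and PWP2 lowest at 0.0806 CPM per kilobase in the controls, and red triangles lie lowest at nearly every gene in between.

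Base composition moved with the change at 2 h. The log2 fold change rose with the GC content of the longest coding transcript, with Spearman's rho of 0.46 across the 55 members and 0.35 across 13615 genes; these points share libraries, and genes are not independent replicates. Among members with under 44.4% GC, 17 of 18 were lower at 2 h (median log2 -0.60). Between 44.4% and 54.6% GC, 15 of 16 were lower (median log2 -0.49), and above 54.6% GC, 13 of 21 were lower (median log2 -0.33). In the same ranges 28.9%, 17.9% and 7.82% of all genes were lower, with medians of -0.18, -0.02 and 0.18. In each range the median of the members lay below that of all genes. NOC3L, WDR3 and NOP58 were among the AT-rich members with strong falls, and TBL3, NOC4L and PPAN among the GC-rich members not called. After a correction of each library for GC content and length, added after the data were seen, 52 members were lower at 2 h, against 25% of all genes. With that correction the log2 fold change at 2 h went from -0.55 to -0.85 for MYBBP1A, from -0.95 to -0.79 for NOP58 and from -0.43 to -0.31 for NPM1, so single members moved in either direction.

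**Figure D4:**
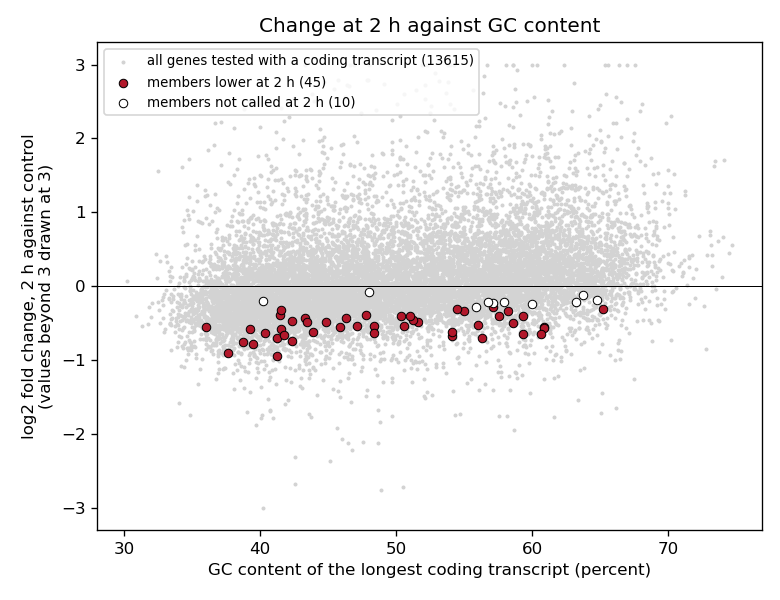
Each point is a gene, with the GC content of its longest coding transcript in percent on the x axis and its log2 fold change at 2 h against control on the y axis (values beyond 3 drawn at 3); grey points are 13615 genes, filled red points the 45 members lower at 2 h and open points the 10 not called. All members lie below 0, and the 10 open points are the 10 members nearest to 0.

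Some of these genes also host small nucleolar RNAs, counted here as annotated within the span of the gene on the same strand. In such a case 1 transcription unit can yield both a protein and a guide RNA. Whether each lies in an intron or an exon was not checked. By the gene annotation 7 of the 55 members (12.7%) are such hosts: NOP56, NOP58, DKC1, WDR43, TSR1, PPAN and GNL3. Over 16094 tested genes with a match, 235 (1.46%) are hosts. Of the 7 member hosts 6 were lower at 2 h (median log2 -0.53), and the median of the other members was -0.47. Among all host genes 60 were lower (median log2 -0.14).

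Other genes of the pathway, from lists of factors outside the 55 that were also chosen with earlier results known, were lower too. Of 122 other tested genes of ribosome biogenesis, 83 were lower and 2 were higher at 2 h (median log2 -0.46). Of all genes tested, 15.8% were lower and 15.9% higher at 2 h. At 4 h edgeR called 0 of the 122 other pathway genes in either direction. At an unadjusted p under 0.05 it had 0 of them lower and 1 higher, against 270 and 313 of all 16209 genes. Against 2 h, 85 of the 122 were higher at 4 h and 1 was lower, beside 14% and 14.1% of all genes tested. By list, 24 of 33 other small-subunit factors were lower, with the smallest p for ESF1 (log2 -1.32) and UTP11 (log2 -0.67). Of 42 other large-subunit factors 31 were lower, with the smallest p for BRIX1 (log2 -0.78) and NIFK (log2 -0.75), and the lowest log2 fold change in that list was -0.84. Among RNA polymerase I subunits and factors 8 of 13 were lower, with the smallest p for POLR1E (log2 -0.995) and POLR1B (log2 -0.87). ESF1 had 172 and 162 CPM in the controls, 51.1 and 82.8 CPM at 2 h and 183 and 135 CPM at 4 h. POLR1E had 73.2 and 68.1 CPM without heme, 35 and 35.9 CPM after 2 h and 73.6 and 67.9 CPM after 4 h. The fit gave both a larger fold change than any member, a difference that was not tested.

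The RNA-trimming and snoRNP-building parts of the pathway followed. Their counts below are for 2 h, where 15.8% of all genes tested were lower. Of 14 nuclear exosome genes 8 were lower, with the smallest p for EXOSC3 (log2 -0.61) and MPHOSPH6 (log2 -0.71). Of 10 snoRNP assembly factors 8 were lower, with the smallest p for SHQ1 (log2 -0.82), the chaperone of DKC1, and NUFIP1 (log2 -0.79). RNase P and MRP proteins had 4 of 10 lower, with the smallest p for POP1 (log2 -0.91) and RPP40 (log2 -0.75). The genes that were higher at 2 h, named after their values were seen, were NOP53 (log2 0.48, SE 0.13) and EFL1 (log2 0.46, SE 0.12), both factors of the 60S subunit. The plot of distributions shows the members and these genes side by side.

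**Figure D5:**
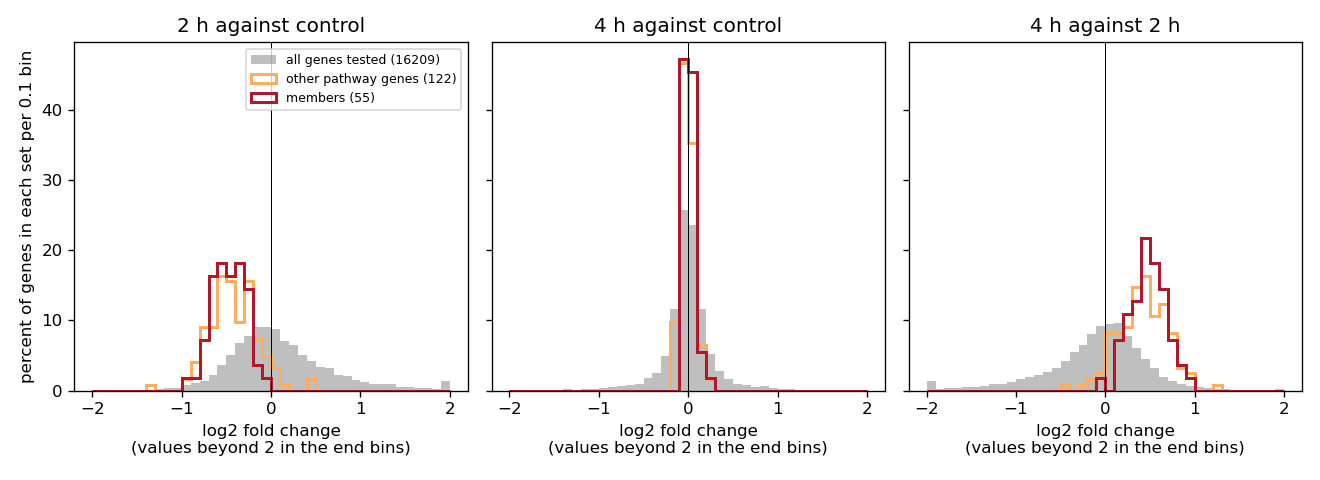
Histograms give the percent of genes per 0.1 bin of log2 fold change (values beyond 2 in the end bins) for all 16209 genes tested (grey), 122 other pathway genes (orange) and 55 members (red) in the 3 comparisons. The members centre on -0.48 at 2 h, on 0.002 at 4 h and on 0.48 at 4 h against 2 h, beside all-gene medians of 0.02, -0.003 and -0.03.

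Counting limits some members. The strand setting of the counts is not given in the sources used here, so reads from overlapping genes on opposite strands cannot be told apart. In GENCODE release 29, 21 members overlap no other gene's exons, and 17 share over 10% of their exonic bases. The largest shares were those of PPAN (59.8%, with P2RY11 and a read-through gene), IMP3 (59.3%), NOP2 (54.4%) and EMG1 (53.1%). Besides PWP2, stretches of 75 bases shared with pseudogenes or other genes made up 29.8% of NPM1 and 22.8% of RRN3, whose values are uncertain to that extent. All members except PWP2 had over 100 reads in every library.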

How the data were processed

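Per the labels' protocols, Trizol was used to extract RNA and a TruSeq kit of Illumina to make libraries. The authors deposited 1 table of raw read counts per library, 1 row per gene symbol, in the layout of HTSeq. The build was hg38 and the tools included STAR, Trimmomatic, deepTools and SAMtools, per the submitters' processing notes. Their versions, the annotation, strandedness and read type: not given in the sources used here. The 5 summary rows stayed out of sizes and tests: reads outside genes were 5.48% to 6.88% and ambiguous reads 4.23% to 4.48% of a library, and reads aligned to several places were listed at 0. Deposited counts summed to 53129375 to 55537611 per library. A count of 0 allows up to 3 counts, or 0.0565 CPM in the shallowest library, for counting error only. Counts of replicates differed beyond sampling noise, so none was treated as a duplicate. The chi-square per gene was 8.78 in the controls, 33.9 at 2 h and 21.9 at 4 h, so the 2 h replicates differed most.

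Counts were tested with edgeR 4.0.16 in R 4.3.3: TMM, filterByExpr (minimum count 10), and the two-sided quasi-likelihood test in 1 fit of all 6 libraries (residual degrees of freedom 3, coefficient of biological variation 0.0982), Benjamini-Hochberg adjusted over 16209 genes. Intervals are 95% intervals of the fit. Alternatives were DESeq2 1.42.0, its size factors, library totals alone, no count filter, a replicate block, only the compared groups, a change beyond 1.5-fold and leaving out each library. A correction for GC content and length and the comparison with genes of at least 50 CPM were added after the data were seen. Libraries with the same replicate number showed little shared deviation (correlations between -0.09 and 0.07), which cannot tell whether they were paired in the experiment.

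The members and lists were chosen with earlier results of these data known. Values of every library are given for the 3 members per role group with the smallest p at 2 h (2 in groups of 6 or fewer) and for any member called higher or called at 4 h against control. At most 2 genes are named per other pathway list, by the smallest p. Some marker genes on the lists are not reported here. Members not named by this rule were added after their values were seen. Positions come from GENCODE release 29 on GRCh38, where 33164 symbols matched 1 gene.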

Additional observations from a re-analysis of the deposited data

Results flagged for a closer look

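Levels after 4 h of heme differed from those after 2 h for 45 of the 55 members, by edgeR's quasi-likelihood test. Adjustment was by Benjamini-Hochberg over all genes tested. All 45 were higher at 4 h. The median log2 fold change over all 55 members was 0.48 in that comparison.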

How the results depend on the processing

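Of the 45 members lower at 2 h, all stayed called with DESeq2 (47 lower in all), with its size factors (46), without the count filter (46) and with GC and length correction (52). Of all genes tested under these settings, in the same order, 19.6%, 16.3%, 11.1% and 25% were lower. With library totals alone 41 members were lower, against 11.2% of all genes, and BOP1, BYSL, HEATR1 and NOB1 were lost. When a change beyond 1.5-fold was required, 1 member (NOP58) was lower at 2 h, and 1 (UTP20) higher at 4 h against 2 h, where 121 and 158 of the 16209 genes tested were called. Leaving out 1 library left a group with 1 library, so only effect sizes are given for these fits. The members' median log2 fold change then lay between -0.52 and -0.45 at 2 h. At 4 h against 2 h it lay between 0.44 and 0.55. Fewer members were called in some of these fits. With a replicate block 44 members were lower at 2 h (BYSL was lost) and 43 higher at 4 h against 2 h. Of all genes tested, 14.6% and 12.7% were so called. The replicate numbers are not known to pair the libraries. The members called at 4 h against control, and those higher at 2 h, numbered 0 under every alternative run. All 55 fold changes at 2 h were below 0 under every alternative except the GC and length correction, with 54. Of the values of single named genes under the alternatives, 417 kept their direction and side of the threshold and 31 kept only their direction. The shift of the median over all genes between scalings was below 0.1 on the log2 scale. With 2 libraries per group, differences near the size seen in NOP10 or TBL3 were within the error of the fit. The cause of each lost call was not tested.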
